A study of Mus musculus with 8 samples.

Results

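The genes described here encode the machinery of oxidative phosphorylation in RAW 264.7 cells, a mouse macrophage-like line, exposed to either of 2 probiotic bacteria. A gene was included when its array name began with Nduf, Uqcr or Atp5, or with Cox4, Cox5, Cox6, Cox7 or Cox8, or was Sdhb, Sdhc, Sdhd, Cyc1 or Cycs. The rule found 94 gene names, read by 137 probes of 60 bases, among 27376 names on the array. Of these, 91 were tested among 15014 genes, each through its brightest probe. Cox7b2, Cox8b and Cox8c, tissue-restricted forms of complex IV subunits, were not well above background on any array and have no value here. The other 91 were well above background in both channels on all 8 arrays in 90 cases. The exception was Cox4i2, the hypoxia-associated form of complex IV subunit 4, detected on 2 arrays in the untreated channel and 1 in the treated channel. The rule also drew in 7 Ndufaf genes, whose products help to assemble complex I, and 4 names that are not subunits (Cox4nb, Atp5s, Atp5sl and Atp5c1-ps).

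Oxidative phosphorylation uses a chain of protein complexes in the inner mitochondrial membrane. Complex I (NADH dehydrogenase) and complex II (succinate dehydrogenase) pass electrons to ubiquinone, complex III passes them to cytochrome c, and complex IV passes them to oxygen. The proton gradient that complexes I, III and IV build drives ATP synthase, complex V. Macrophages given bacterial ligands are known to turn from this route towards glycolysis, and complex II and succinate are known to take part in their inflammatory signalling.

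Cells of this line, which has a BALB/c background, were treated with Lactobacillus acidophilus MTCC-10307 or Bacillus clausii MTCC-8326 at a multiplicity of infection of 100, for 1, 2, 4 or 6 h. Each of the 8 arrays held 1 bacterium at 1 time: treated RNA carried the red dye (Cy5) and RNA of untreated cells of the same time the green dye (Cy3). RNA of 3 cultures was pooled in equal parts for each channel, and no array was repeated. The labels do not say whether arrays of the same time share their untreated RNA. The dyes were never swapped, so a constant dye effect of a probe and a constant response cannot be told apart; a difference between times or bacteria carries no such effect. The 4 arrays of a bacterium lay on 1 slide, so the slide and the bacterium cannot be told apart either. All p-values are adjusted p-values of limma's moderated test over all 15014 genes, and rest on the spread of 8 arrays round the effects of bacterium and time. Values are log2 ratios of treated over untreated, and a gene is called at an adjusted p under 0.05.

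Between 39.7% and 51.6% of probes were well above background in a channel, and no spot was saturated. In untreated cells 9 of 10 macrophage markers were above background on at least 1 array, with Mrc1 the exception, as were 0 of 4 epithelial, 3 of 4 fibroblast, 3 of 4 T cell and 2 of 3 B cell markers. At 1 h the chemokine gene Cxcl2 stood at 2.06 with L. acidophilus and 2.35 with B. clausii. The array of B. clausii at 6 h stood apart among the oxidative phosphorylation genes: its correlation across them was -0.14 with the same bacterium at 1 h and 0.51 with L. acidophilus at 6 h. Over all genes tested these 2 correlations were 0.14 and 0.64. The B. clausii arrays at 1, 2 and 4 h correlated with each other at 0.59 to 0.80, beside 0.49 to 0.69 over all genes. The L. acidophilus arrays at 1 and 6 h correlated at 0.29 across these genes and at 0.29 over all genes. These correlations are across genes, which are not independent replicates.

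Complex II subunits Sdhb and Sdhc, the complex I subunit Ndufb5, and the supercomplex factor Cox7a2l were lower in treated cells with both bacteria. Their means were 0.69 to 0.828 of the untreated level, and any constant dye effect of their probes is part of these values. With genes of the same brightness as the reference, 7 genes were higher and 27 lower with L. acidophilus, where 19.5% and 19.4% of all genes were. With B. clausii 5 were higher and 34 lower, where 21.3% and 20.9% of all genes were. After L. acidophilus 24 of 91 genes were called higher and 22 lower, where 23.5% of all genes tested were called higher and 18.3% lower (41.8% in all). After B. clausii 18 were higher and 33 lower, against 22.9% and 21% of all genes (44% in all). The median over the 91 genes was -0.002 with L. acidophilus and -0.07 with B. clausii, beside 0.01 and 0.01 over all genes. Of 89 genes with a value on every array, 13 were above 0 on all 8 (14.6%, against 12.5% of all genes) and 15 were below 0 on all 8 (16.9%, against 10.3%). The members took both directions and spread from -0.54 to 0.54 in the mean responses.

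**Figure D1:**
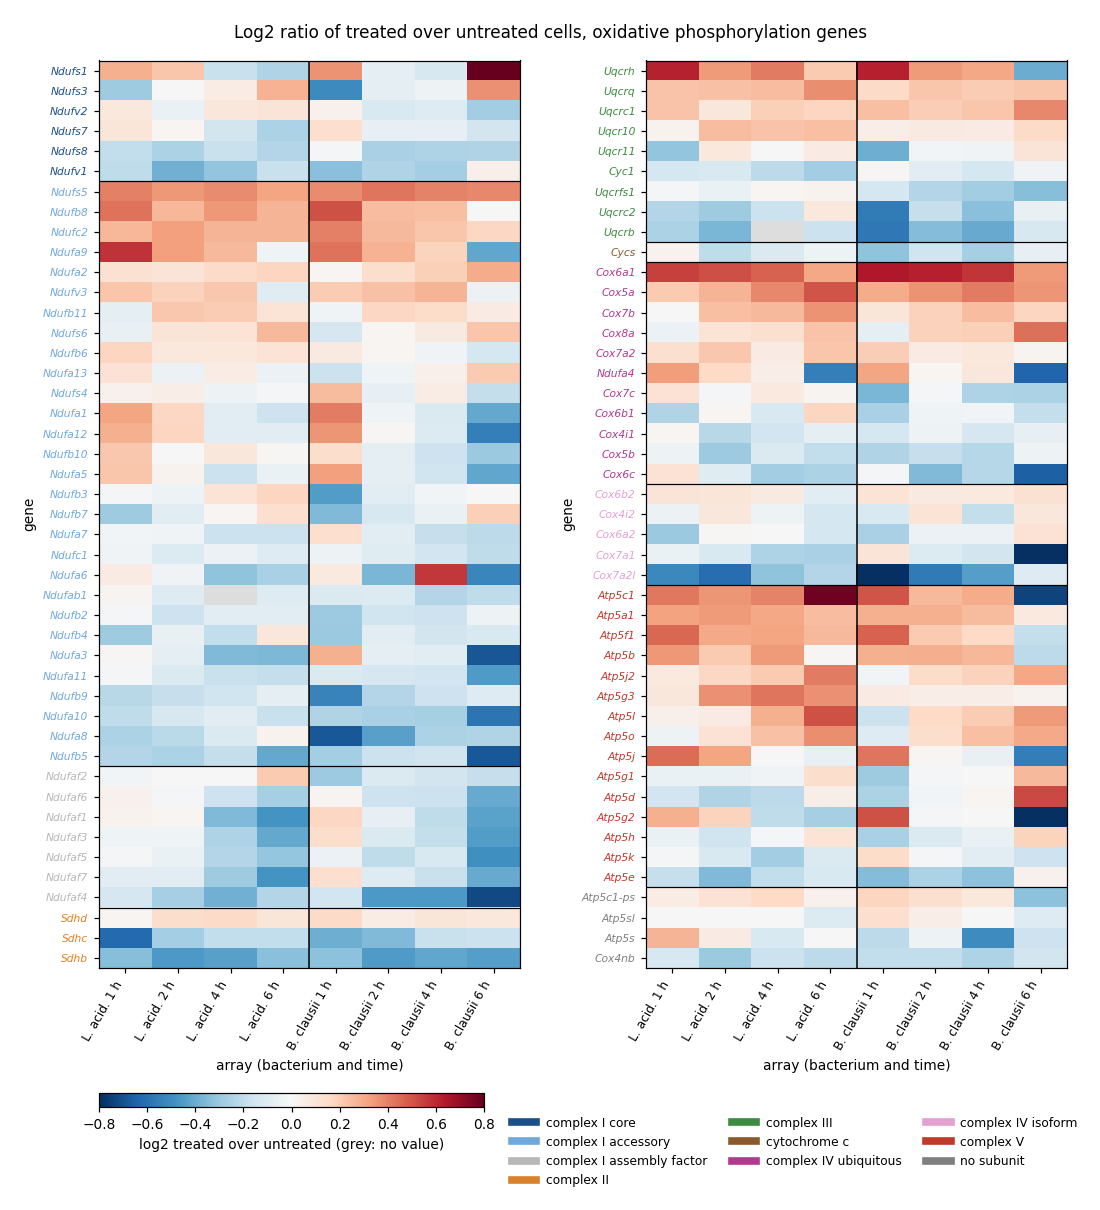
Log2 ratio of treated over untreated cells for 90 of the 91 genes tested (rows, coloured and ordered by complex) on the 8 arrays (columns, by bacterium and hours), with colours cut at 0.8 either way. Sdhb is blue and Ndufs5 red in every column, while Ndufa4 and Atp5g2 turn from red at 1 h to blue at 6 h.

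The calls of higher genes went with brightness. The 91 genes were bright, with a median log2 signal of 13.9 against 8.46 over all genes tested. Among the 214 genes of the whole array with a log2 signal of 15 or more, the median ratio was 0.29 with either bacterium, and 73.4% and 71% were called higher. The 14 oxidative phosphorylation genes in that range had medians of 0.32 and 0.17. The genes called higher with L. acidophilus had a median signal of 14.8 and those called lower 12.2. When each gene was set against the genes nearest to it in brightness, an alternative chosen after the data were seen, 7 genes were higher and 27 lower with L. acidophilus, where 19.5% and 19.4% of all genes were. The counts for B. clausii were 5 and 34, where 21.3% and 20.9% of all genes were called. With the scanner software's own processed signals 5 were higher and 22 lower with L. acidophilus (17.7% and 14.2% of all genes), and 5 and 30 with the other bacterium (24.6% and 18.7%). Plain centring of each array on its median gave 16 and 32 (8.91% and 29.9%), and 1 and 77 (5.84% and 58.2%), and moved the median of all genes on the arrays by up to -0.46. Of the 22 and 33 lower calls, 19 and 26 were also made relative to genes as bright, and 13 and 21 with the processed signals. Of the 24 and 18 higher calls, 6 and 5 were made relative to genes as bright, and 5 and 4 with the processed signals. A further 5 genes with L. acidophilus and 6 with B. clausii were called lower in both of these settings, though not in the counts given first; Cox4i1, Ndufb7 and Uqcr11 were among them with both bacteria. The rises are therefore given below with their value relative to genes as bright. Leaving out single arrays changed the number of calls in either direction, both among these genes and among all genes. Without the B. clausii 6 h array 26 were higher and 26 lower with L. acidophilus (26% and 20.6% of all genes). Without the L. acidophilus 6 h array 20 were higher and 36 lower with B. clausii (25.1% and 23%). Other arrays gave fewer calls. For L. acidophilus 16 were higher and 11 lower without its 2 h array (13.5% and 10.1% of all genes). Leaving out its 4 h array gave 15 and 12 (13% and 8.69%). For B. clausii the counts were 8 and 21 without its 2 h array (14.6% and 13.3%). They were 8 and 19 without its 4 h array (13.3% and 13.1%).

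**Figure D2:**
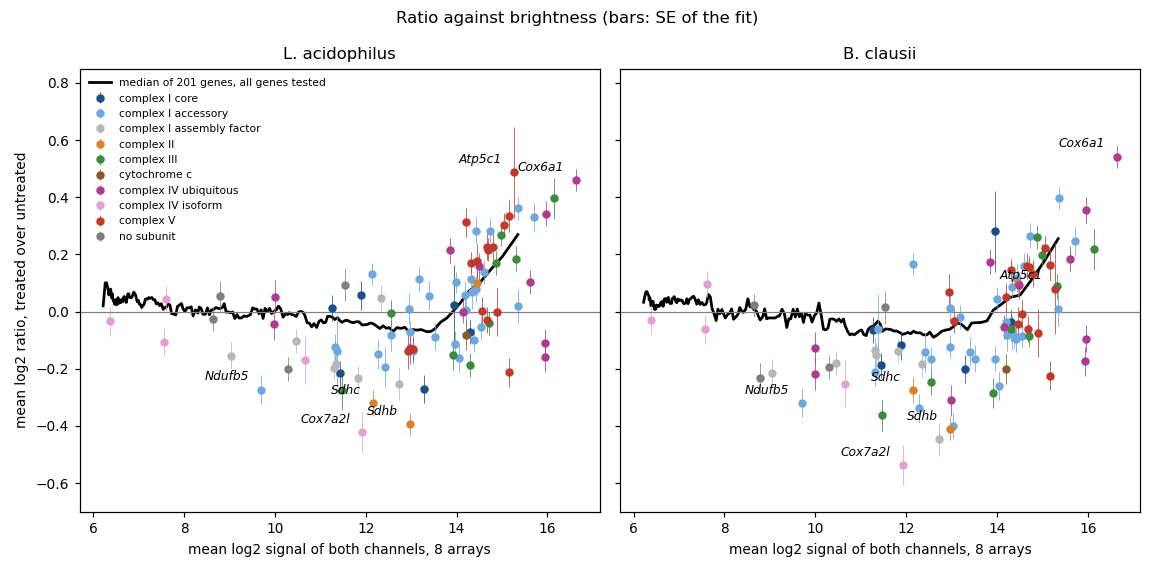
Mean log2 ratio with each bacterium (vertical) against the mean log2 signal of both channels (horizontal) for 90 of the 91 genes, with SE of the fit, over the running median of all genes tested (black line). The line rises at the bright end, where most subunits of complexes IV and V lie, and Cox7a2l, Sdhb, Sdhc and Ndufb5 lie well below it.

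In complex II 2 of 3 genes were called lower with each bacterium and 0 higher. The shares of all genes, which apply to each complex below, were 23.5% higher and 18.3% lower with L. acidophilus. With B. clausii they were 22.9% and 21%. Relative to genes as bright they were 19.5% and 19.4%, and 21.3% and 20.9%. Sdhb, the iron-sulphur subunit, stood at -0.34, -0.46, -0.43 and -0.34 with L. acidophilus at 1, 2, 4 and 6 h. With B. clausii it stood at -0.33, -0.45, -0.42 and -0.44. All 8 values were close together and none was near 0. Such a constant ratio cannot be told apart from a constant dye effect of the probe. The mean was -0.39 (SE 0.04, adjusted p = 0.000281) and -0.41 (SE 0.04, adjusted p = 0.000123), or 0.761 and 0.753 of the untreated level. Against genes as bright it was -0.33 and -0.35, and with the processed signals -0.31 and -0.28. Sdhc, a membrane anchor of the complex, was lowest at 1 h, at -0.62 and -0.39, and stood between -0.17 and -0.35 on the other 6 arrays. Its means were -0.32 (adjusted p = 0.00127) and -0.27 (adjusted p = 0.00181). Sdhd, the other anchor, lay between 0.01 and 0.15 on the 8 arrays and was not called. Sdha, the catalytic subunit, which the rule does not take in, had means of -0.15 (adjusted p = 0.0528) and -0.05 (adjusted p = 0.462). The Sdhb probe maps to chr4:140522514-140527081 and that of Sdhc to chr1:173059657-173059716 (mm9, as the files give them); each gene rests on 1 probe.

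Complex I had 36 subunit genes tested. With L. acidophilus 7 were called higher and 7 lower, and with B. clausii 5 and 12. Of its 7 core subunits, which carry the electrons, 0 were higher and 3 lower with either bacterium. Ndufv1, which binds NADH, had means of -0.27 (adjusted p = 0.00325) and -0.20 (adjusted p = 0.0105) and was below 0 on 7 of 8 arrays. With the processed signals its value for B. clausii was -0.09 (adjusted p = 0.0816). Ndufs8, another iron-sulphur core subunit, was called lower with means of -0.22 and -0.19, but the processed signals gave -0.06 (adjusted p = 0.3) and -0.003 (adjusted p = 0.954). Ndufs1, the largest core subunit, was not called: it lay between -0.24 and 0.36 on 7 arrays and at 0.97 with B. clausii at 6 h.

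Among the 29 accessory subunits of complex I, which surround the core, 7 were higher and 4 lower with L. acidophilus, beside 5 and 9 with B. clausii. Ndufb5 was below 0 on all 8 arrays, from -0.68 to -0.16, with means of -0.27 (adjusted p = 0.00321) and -0.32 (adjusted p = 0.00115). Ndufa8 and Ndufa10 had means of -0.40 and -0.34 with B. clausii, beside -0.14 and -0.15 with L. acidophilus, all called. Against genes as bright the values with L. acidophilus were -0.09 (adjusted p = 0.139) and -0.10 (adjusted p = 0.151). Ndufs5 was high throughout, between 0.32 and 0.43 on the 8 arrays, with means of 0.36 and 0.40. Against genes as bright these were 0.11 (adjusted p = 0.058) and 0.14 (adjusted p = 0.0181). Ndufc2 had means of 0.28 and 0.27, which were 0.14 and 0.13 relative to genes as bright, both still called, but with B. clausii -0.10 under median centring and 0.08 (adjusted p = 0.106) with the processed signals. Ndufa9 had a mean of 0.28 with L. acidophilus and 0.20 relative to genes as bright (adjusted p = 0.0126).

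The 7 assembly factors of complex I gave 0 higher and 5 lower calls with L. acidophilus, beside 0 and 7 with B. clausii. Ndufaf4 was lowest, below 0 on all 8 arrays, with means of -0.25 (adjusted p = 0.00845) and -0.45 (adjusted p = 0.000466). The medians of the 7 were -0.18 with each bacterium, beside 0.01 over all genes. Relative to genes as bright 5 and 4 of them were lower and none higher. With the processed signals 0 of the 5 calls with L. acidophilus and 4 of the 7 with B. clausii were kept, and Ndufaf7 with B. clausii was at -0.009. Ndufaf4 was then -0.12 (adjusted p = 0.0955) with L. acidophilus and -0.30 (adjusted p = 0.00814) with B. clausii. Its second kept probe gave 0.02 (adjusted p = 0.771) with L. acidophilus relative to probes as bright. With B. clausii that probe gave -0.21 (adjusted p = 0.00375).

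Of 9 complex III genes, 4 were higher and 3 lower with L. acidophilus, beside 3 and 3 with B. clausii; relative to genes as bright these counts were 0 and 4, and 0 and 5. Uqcrb, a small subunit at the ubiquinone site, was below 0 on each of the 7 arrays with a value, from -0.57 to -0.13. Its means were -0.28 (adjusted p = 0.0161) and -0.36 (adjusted p = 0.00141). Uqcrc2, one of the core proteins, had means of -0.15 (adjusted p = 0.0437) and -0.28 (adjusted p = 0.0027), the first of them -0.12 (adjusted p = 0.0672) with the processed signals. Uqcrfs1, the Rieske iron-sulphur protein, lay between -0.05 and 0.03 with L. acidophilus and between -0.34 and -0.14 with B. clausii, where its mean was -0.25 (adjusted p = 0.00221), or -0.15 (adjusted p = 0.0622) with the processed signals. The groups of 4 arrays did not overlap, but the difference of 0.24 was not called (adjusted p = 0.102). Cyc1, cytochrome c1, had means of -0.19 (adjusted p = 0.00879) and -0.06 (adjusted p = 0.272), the second of them -0.14 (adjusted p = 0.0484) with the processed signals. Uqcrh and Uqcrq, called higher with both bacteria, were among the brightest genes. Against genes as bright Uqcrh had 0.10 (adjusted p = 0.261) and -0.08 (adjusted p = 0.41) and Uqcrq 0.09 (adjusted p = 0.0915) and 0.03 (adjusted p = 0.632), and Uqcrq stood at -0.15 with B. clausii under median centring. Cycs, cytochrome c itself, had means of -0.08 (adjusted p = 0.236) and -0.20 (adjusted p = 0.0136).

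Complex IV combines genes expressed in most tissues with isoform genes of restricted expression. Of the 11 former, 4 were higher and 1 lower with L. acidophilus, beside 4 and 3 with B. clausii. Cox6a1, the common form of subunit 6A, stood at 0.55, 0.52, 0.47 and 0.31 with L. acidophilus. B. clausii gave 0.64, 0.62, 0.57 and 0.34. The order over time was the same with both, highest at 1 h and lowest at 6 h. Its means of 0.46 (adjusted p = 0.000149) and 0.54 (adjusted p = 3.15e-05) were the highest of any gene here called with both bacteria. Relative to genes as bright they were 0.17 (adjusted p = 0.00917) and 0.25 (adjusted p = 0.00124), and with the processed signals 0.03 (adjusted p = 0.456) and 0.12 (adjusted p = 0.0365). Cox5a had means of 0.34 and 0.36, which were 0.05 (adjusted p = 0.379) and 0.06 (adjusted p = 0.274) relative to genes as bright and -0.02 (adjusted p = 0.626) and 0.05 (adjusted p = 0.284) with the processed signals. Cox4i1, the common form of subunit 4, had means of -0.11 (adjusted p = 0.0955) and -0.09 (adjusted p = 0.139) and was not called. It was called lower relative to genes as bright, at -0.40 (adjusted p = 0.000783) and -0.39 (adjusted p = 0.000507), and with the processed signals, at -0.32 (adjusted p = 0.0109) and -0.29 (adjusted p = 0.00755). Cox4i2 had a mean of -0.03 with each bacterium at a signal near background. Cox6c had means of -0.13 (adjusted p = 0.0914) and -0.31 (adjusted p = 0.00225), and the difference between the bacteria was not called.

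Cox7a2l, which belongs to the subunit 7A family and takes part in joining complexes into supercomplexes, had the lowest mean of all 91 genes with each bacterium. It stood at -0.52, -0.61, -0.32 and -0.24 with L. acidophilus. B. clausii gave -1.03, -0.57, -0.44 and -0.11. The means were -0.42 (SE 0.07, adjusted p = 0.0023) and -0.54 (SE 0.07, adjusted p = 0.000514), or 0.747 and 0.69 of the untreated level. Against genes as bright they were -0.38 and -0.48. Of its relatives, Cox7a2 lay above 0 on all 8 arrays with means of 0.16 (adjusted p = 0.0248) and 0.09 (adjusted p = 0.139). These were 0.07 (adjusted p = 0.261) and 0.02 (adjusted p = 0.741) relative to genes as bright, and the second was -0.05 with the processed signals. Cox7a1, the muscle form, lay at -0.86 with B. clausii at 6 h and between -0.26 and 0.10 elsewhere. Its mean of -0.25 with B. clausii (adjusted p = 0.0341) was not called relative to genes as bright (-0.20, adjusted p = 0.0893). The Cox7a2l probe maps to chr17:83901834-83901893 and that of Cox6a1 to chr5:115795726-115795785 (mm9); each is the only probe kept for its gene.

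Complex V had 9 higher and 2 lower genes of 15 with L. acidophilus, beside 6 and 1 with B. clausii. Its subunits were also among the brightest, and relative to genes as bright the counts were 1 and 2, and 0 and 2. Atp5b, the catalytic beta subunit, had means of 0.23 (adjusted p = 0.00536) and 0.16 (adjusted p = 0.022), which were 0.09 (adjusted p = 0.158) and 0.04 (adjusted p = 0.522) relative to genes as bright. Of its 4 probes the 3 others had means of -0.21, -0.30 and 0.09 with L. acidophilus. Their means for B. clausii were -0.14, -0.25 and 0.18, and with each bacterium probes were called in both directions. Atp5g3, a gene of the membrane ring subunit c, stood at 0.09, 0.36, 0.43 and 0.36 with L. acidophilus and between 0.03 and 0.07 with B. clausii. Its mean with L. acidophilus was 0.31 (adjusted p = 0.00201), and 0.27 (adjusted p = 0.00409) relative to genes as bright; the other subunit c genes, Atp5g1 and Atp5g2, were not called with either bacterium. Atp5e, the epsilon subunit of the stalk, was lower with means of -0.21 (adjusted p = 0.0104) and -0.22 (adjusted p = 0.00736), or -0.44 and -0.45 relative to genes as bright. Atp5c1, the gamma subunit of the rotating stalk, lay between 0.26 and 0.50 on 6 arrays but at 0.78 with L. acidophilus and -0.74 with B. clausii at 6 h.

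**Figure D3:**
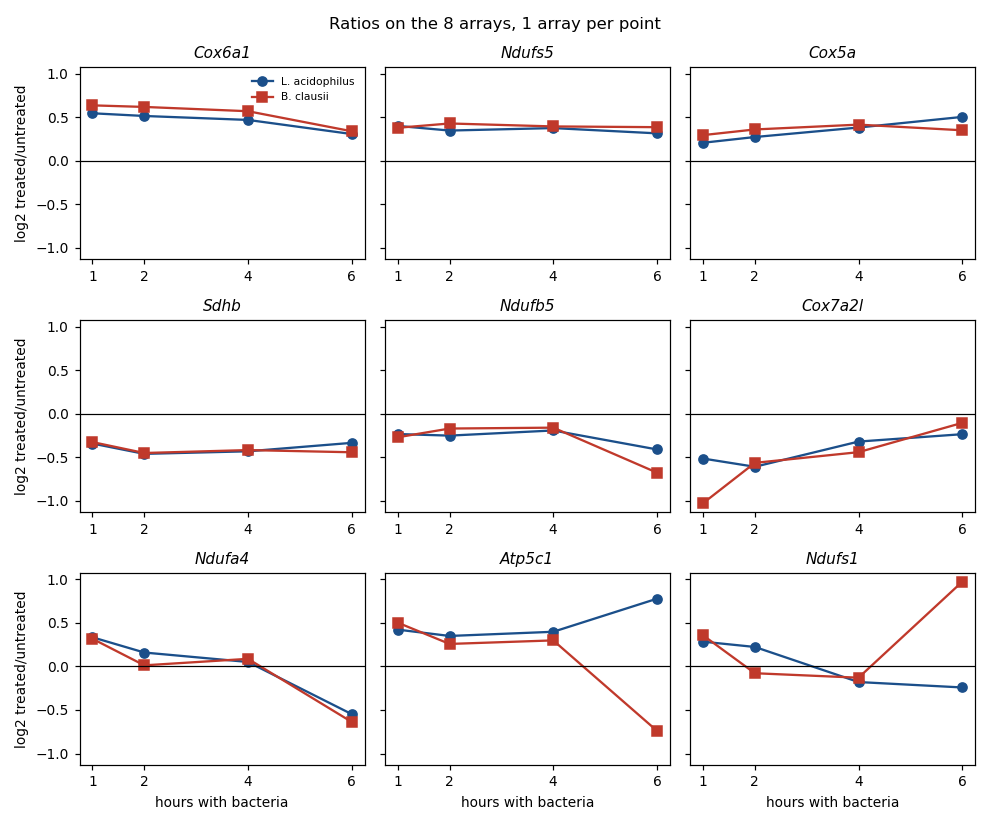
Log2 ratio of treated over untreated cells (vertical) by hours with bacteria (horizontal) for 9 genes, with 1 array per point, circles for L. acidophilus and squares for B. clausii. Sdhb stays between -0.46 and -0.33, Cox7a2l is closest to 0 at 6 h, and in Atp5c1 and Ndufs1 the bacteria are farthest apart at 6 h.

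Change over time was taken as the mean of 4 and 6 h less that of 1 and 2 h over both bacteria. By this measure 12 of 91 genes rose and 15 fell, against 12.2% and 12.4% of all genes (24.5% in all). Ndufa4, now counted among the complex IV subunits, stood at 0.34, 0.16, 0.05 and -0.55 with L. acidophilus. B. clausii gave 0.32, 0.01, 0.09 and -0.64, and the change was -0.47 (SE 0.06, adjusted p = 0.00135). Atp5j, a stator subunit of ATP synthase, changed by -0.47 (adjusted p = 0.00566). Of the accessory complex I subunits, Ndufa12, Ndufa3, Ndufa9 and Ndufa1 each changed by -0.41 and Ndufa5 by -0.33. Other kept probes differed: relative to probes as bright they gave -0.06 for Ndufa1 and -0.25 and -0.04 for Ndufa12, none of them called. The other Ndufa3 probe gave 0.31 (adjusted p = 0.0272). Of the assembly factors, 4 of 7 fell and 0 rose, led by Ndufaf1 at -0.40 (adjusted p = 0.00303). The rises included Cox7a2l at 0.40 (adjusted p = 0.0196) and the core subunit Ndufs3 at 0.38 (adjusted p = 0.00452). With B. clausii Cox7a2l was lowest at 1 h, and with both bacteria it was closest to 0 at 6 h. Complex V was split, with Atp5l (0.31), Atp5o (0.26) and Atp5j2 (0.19) up and Atp5g2 (-0.56) and Atp5j down.

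Without the B. clausii 6 h array 5 genes rose and 12 fell (9.01% and 9.8% of all genes). Without both 6 h arrays 0 rose and 4 fell (3.93% and 4.08% of all genes). Without both 1 h arrays the counts were 0 and 2 (4.14% and 3.52%). They were 3 and 6 without the L. acidophilus 2 h array (5.59% and 6.05%). Leaving out its 4 h array gave 5 and 7 (5.98% and 6.01%). Without the B. clausii array of 1 h they were 7 and 9 (7.07% and 7.43%). Leaving out its 2 h array gave 6 and 9 (6.77% and 7.2%), and its 4 h array 3 and 12 (5.78% and 7.08%). Relative to genes as bright 13 rose and 16 fell (11.8% and 12.5% of all genes), and 26 of the 27 calls were kept. With the processed signals 0 rose and 1 fell (4.44% and 4.16% of all genes), and that gene, Atp5s, was not among the 27. Centring of each array gave 27 rises and 1 fall (19.1% and 2.51% of all genes).

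**Figure D4:**
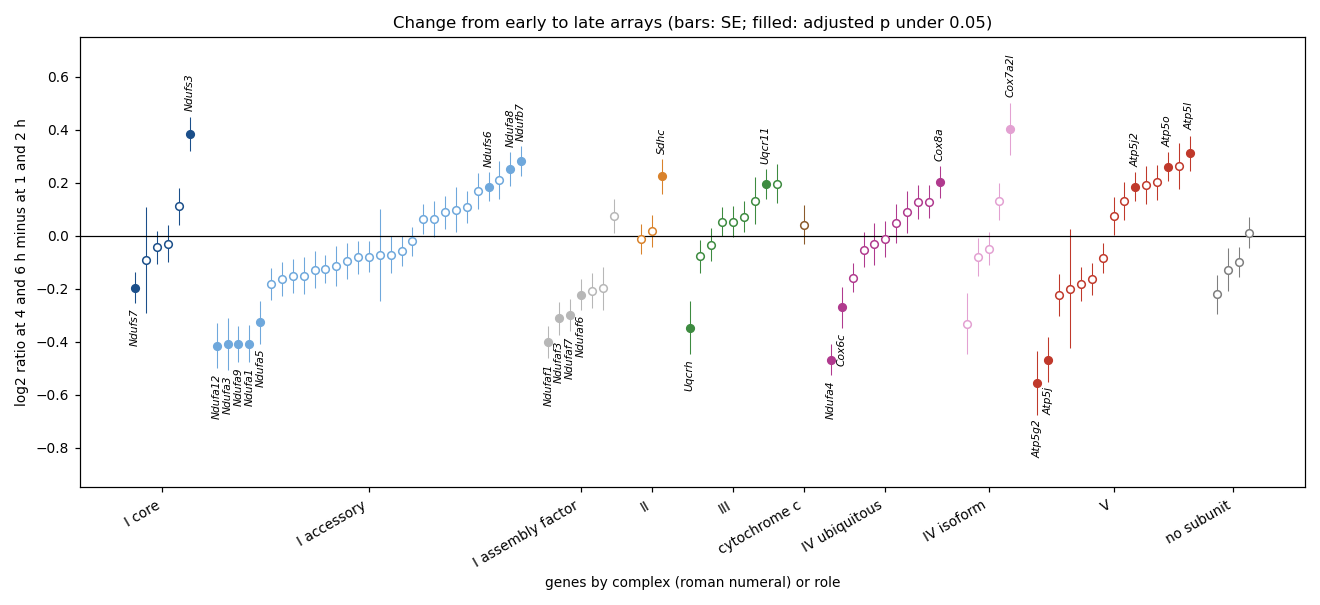
Change in log2 ratio from the early arrays (1 and 2 h) to the late arrays (4 and 6 h) over both bacteria (vertical), with SE of the fit, for 90 of the 91 genes grouped by complex or role (horizontal). Filled points are called at an adjusted p under 0.05, and all 15 falls are among them.

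No gene was called different between the bacteria. The limma test called 0 of 91, against 0.42% of all genes, and 16 had an unadjusted p under 0.05. The smallest adjusted p was 0.0959, for Ndufa8, whose mean was 0.26 (SE 0.06) higher with L. acidophilus. Atp5s and Uqcrfs1 followed at 0.28 and 0.24. On the other side Atp5d had a difference of -0.21 (adjusted p = 0.21), Cyc1 of -0.13 and Atp5k of -0.10. For Sdhb the difference was 0.02 (SE 0.06) and for Cox6a1 -0.08 (SE 0.05). A change over time that differed between the bacteria was called by limma for 0 of 91 genes and for 0% of all genes, and 0 of the 91 had an unadjusted p under 0.05. Its largest values, for Atp5c1 (0.80, SE 0.38) and Ndufs1 (-0.75, SE 0.40), rest on the 6 h arrays, and both had an adjusted p of 0.9999.

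On single arrays, where no test was possible, 1 value reached a 2-fold change: Cox7a2l with B. clausii at 1 h, at -1.03. On that array 0.587% of all genes passed the same limit, and on the others from 0.0733% to 0.615%. A 1.5-fold change was reached by 20 values, 6 higher and 14 lower. For L. acidophilus the share of all genes past that limit was 1.95%, 1.34%, 1.45% and 2.83% at 1, 2, 4 and 6 h, where 3, 1, 0 and 1 of the 91 passed. The share for B. clausii at 1, 2 and 4 h was 5.79%, 2.3% and 2.75%, where 5, 1 and 0 passed. On the B. clausii 6 h array 9 passed, of which Ndufs1 was high and Atp5c1, Atp5g2, Cox6c, Cox7a1, Ndufa3, Ndufa4, Ndufaf4 and Ndufb5 were low; 6.18% of all genes passed there. Ndufa6 was at 0.56 with B. clausii at 4 h and at -0.37 and -0.52 on the arrays before and after it.

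Most genes had 1 kept probe, and those with more show how far a value depends on the probe. Below are the first 30 bases of the probe pairs of 3 genes whose probes overlap, shown because each pair reads nearly the same stretch of the transcript; capitals mark the bases that both printed stretches share.
Ndufs6 probe 1: aactttGCCATTGATTTGATAGCACAACAG
Ndufs6 probe 2: GCCATTGATTTGATAGCACAACAGcctgtg
Ndufa11 probe 1: GGCCGAGCAAGCCCAGCTAGgtatggcgat
Ndufa11 probe 2: ctttagggtcGGCCGAGCAAGCCCAGCTAG
Cox7a2 probe 1: aactgagctcttCTTTGGGGATCAATATTT
Cox7a2 probe 2: CTTTGGGGATCAATATTTattgatgtgtat

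The Ndufs6 pair (chr13:73457796-73457855 and chr13:73457790-73457849, mm9, minus strand) is shifted by 6 bases and shares 54 of 60, yet the change over time was 0.19 at the brighter probe and 0.01 at the other. The Ndufa11 pair (chr17:56857241-56857300 and chr17:56857231-56857290, plus strand) is shifted by 10 bases. It gave -0.21 and -0.22 in the mean response to B. clausii, but -0.15 and 0.14 in the change over time. The Cox7a2 pair (chr9:79603227-79603286 and chr9:79603215-79603274, minus strand) is shifted by 12 bases and gave 0.16 and -0.02 with L. acidophilus, and -0.05 and 0.25 in the change over time.

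Probes that lie apart on a transcript differed as well. The 30 bases that open the probes of 2 genes with opposite changes over time follow, with no letters marked.
Uqcrh probe 1: ggaacagttccttgtggttctggacgtcgg
Uqcrh probe 2: gataatcgcgtgtcttcccggtcacagaca
Atp5g2 probe 1: cagaggccatggggctcttttgcctaatgg
Atp5g2 probe 2: acttcacttatccctagccgcagtttccaa

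Uqcrh, the hinge protein of complex III, was read at chr4:115739644-115739703 and chr4:115742492-115742551 (mm9, minus strand). Its probes gave like means, 0.40 at both for L. acidophilus, with 0.22 and 0.30 for the other bacterium, but changes over time of -0.35 and 0.21. Atp5g2 was read at chr15:102493444-102493503 and chr15:102495586-102495645, and its probes changed over time by -0.56 and 0.31. In both genes the 2 probes were called in opposite directions over time, as were probes of Ndufa3 and Ndufab1.

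Of the 25 genes with more than 1 kept probe, 13 had probes of both signs in the mean response to L. acidophilus, 12 with B. clausii and 18 in the change over time. Between the 2 brightest probes of a gene the median absolute difference was 0.158, 0.163 and 0.228 in these 3 values, while the median absolute value over the 91 genes was 0.138, 0.157 and 0.151. The difference between probes was thus as large as the responses of these genes. Over 4941 genes of the whole array the median absolute difference was 0.139, 0.147 and 0.165. The 2 brightest probes had opposite signs in 42.95%, 38.7% and 42.3% of those genes, and in 11, 9 and 16 of the 25. The 2 probes correlated across the 25 genes at r = 0.33, 0.50 and -0.15, beside 0.24, 0.31 and 0.31 over the 4941. Probes were called in both directions for Atp5b, Cycs, Ndufab1, Ndufb8 and Ndufv3 with L. acidophilus and for Atp5b, Atp5f1, Ndufab1 and Ndufb8 with B. clausii. All kept probes of a gene were called lower for Ndufa11, Ndufa8 and Ndufaf4 with B. clausii and for Ndufaf7 over time. All were called higher for Uqcrh with both bacteria and Uqcrq with L. acidophilus. Relative to probes as bright the lower calls stayed, save 1 Ndufa8 probe (-0.12, adjusted p = 0.0921). The Uqcrh probes then had 0.09 and 0.16 with L. acidophilus, the second called, and -0.09 and 0.04 with B. clausii, neither called. The Uqcrq probes had 0.08, not called, and 0.15, called. Sdhb, Sdhc, Ndufb5, Cox7a2l and Cox6a1 have no such check, since each has 1 kept probe.

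**Figure D5:**
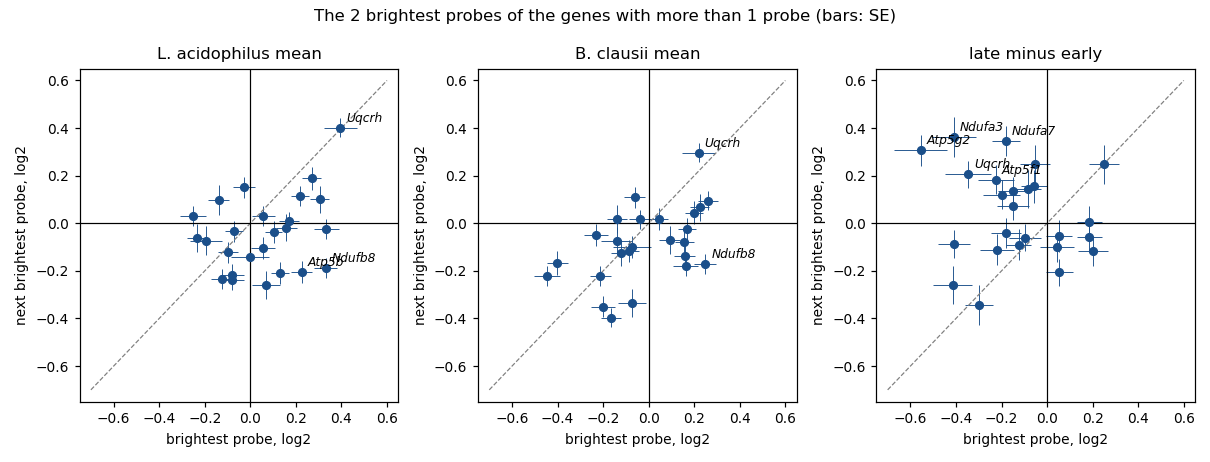
Log2 values of the brightest probe (horizontal) and the next brightest probe (vertical) of the 25 genes with more than 1 kept probe, with SE, for the mean response to each bacterium and for the change over time. Points near the dashed line have like values; in the right panel Atp5g2, Ndufa3 and Uqcrh fall on opposite sides of 0.

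Promoters of these genes are known to carry sites for the nuclear respiratory factors NRF1 and GABP, which act on many of them together. RefSeq start sites (GRCm38.p6) were at hand for 73 of the 90 subunit and assembly genes, in windows from 250 bases before to 50 after the start. The core of the NRF1 motif, GCGCATGC on either strand, was in a window of 13 of the 73 genes (17.8%), against 2.71% of all 32851 windows. The core of the GABP motif, CCGGAAG on either strand, was in 17 (23.3%), against 8.86%. Genes with the NRF1 core included Cox6a1, called higher with both bacteria, Sdhb and Ndufaf4, called lower with both, and Cycs. With the processed signals 2 of these calls with L. acidophilus were not kept. Cox6a1 was then at 0.03 (adjusted p = 0.456) and Ndufaf4 at -0.12 (adjusted p = 0.0955). The 30 bases round it are printed for these 4, shown because genes called in opposite directions share it. The motif and any overlapping copy on the other strand are in capitals.
Cox6a1 promoter: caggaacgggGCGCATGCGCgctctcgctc
Sdhb promoter: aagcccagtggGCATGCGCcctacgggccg
Ndufaf4 promoter: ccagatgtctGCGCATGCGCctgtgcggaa
Cycs promoter: catgctagctcGCATGCGCgcgcacaaacc

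In Cox6a1 (chr5:115349101-115349130, minus strand) the motif begins 162 bases before the start, and in Ndufaf4 (chr4:24897960-24897989, plus strand) 113 bases before it. In Sdhb (chr4:140961206-140961235, plus strand) it begins 54 bases before the start and in Cycs (chr6:50566611-50566640, minus strand) 60 bases before it. Of the 13 genes with the NRF1 core, 3 were called higher and 4 lower with both bacteria. Of all 71 tested genes with a window, 13 were called higher and 14 lower with both. A match is a description of the letters and not a bound site.

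The other genes of the pathway were read from lists chosen with earlier results of these data known. The arrays held probes for 4 genes of the mitochondrial genome, ND4, CYTB, COX2 and ATP6, which encode core parts of complexes I, III, IV and V. All 4 were called higher with both bacteria, from 0.52 to 0.68 with L. acidophilus and from 0.59 to 0.90 with B. clausii. Relative to genes as bright they were still called, from 0.36 to 0.63 and from 0.44 to 0.80. CYTB, the haem protein of complex III, stood between 0.50 and 1.11 on the 8 arrays. ATP6 changed over time by -0.51 (adjusted p = 0.0031), from 0.97 and 1.36 at 1 h to 0.36 and 0.36 at 6 h. Those values are of its brightest probe, and the mean over its probes changed by -0.30 (adjusted p = 0.023). With the processed signals all 4 were still called higher with both bacteria, and the change of ATP6 was -0.23 (adjusted p = 0.125). Under median centring all 4 were still called, but with B. clausii ND4 stood at 0.19, COX2 at 0.24, ATP6 at 0.46 and CYTB at 0.54.

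Of 16 glycolysis genes, 8 were higher and 2 lower with L. acidophilus, beside 11 and 1 with B. clausii, with medians of 0.12 and 0.31. The shares of all genes, which apply to each list that follows, were 23.5% higher and 18.3% lower, and 22.9% and 21%. Over time 0 glycolysis genes rose and 6 fell, against 12.2% and 12.4% of all genes. Among the largest changes were those of Slc2a1, the glucose transporter (0.66 and 0.79), Pfkfb3, which makes the activator of phosphofructokinase (0.49 and 0.84), and Pgam1 (0.48 and 0.59). Slc2a1 went from 1.29 and 1.30 at 1 h to -0.32 and 0.17 at 6 h, and its change over time was -0.91 (adjusted p = 0.000666). Of 14 genes of the citric acid cycle, 2 were higher and 4 lower, and 3 and 3, with Mdh2 at 0.33 and 0.28, Idh3b at -0.31 and -0.41 and Suclg1 at -0.31 and -0.35. Of 20 genes comprising Sdha and assembly factors outside the rule, 3 were higher and 5 lower, and 4 and 8. Atpif1, the inhibitor of ATP synthase, stood at 0.47 and 0.51, Sdhaf2, which helps to assemble complex II, at -0.45 and -0.40, and the copper factor Cox19 at -0.33 and -0.46. Of 12 regulators of mitochondrial gene expression, 1 was higher and 2 lower, and 3 and 4, with Tfb1m at 0.25 and 0.14, Gabpa at -0.16 and -0.39 and Polrmt at 0.10 and 0.33. Of 7 carriers and channels, 3 were higher and 3 lower with either, with the ADP/ATP carrier Slc25a5 at 0.48 and 0.52, Slc25a3 at -0.27 and -0.13 and Vdac2 at -0.10 and -0.33. Gabpa and Polrmt with L. acidophilus and Vdac2 with L. acidophilus were not called. Brightness was not taken into account for the lists of this paragraph.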

How the data were processed

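The deposited files hold scanner intensities of 8 Agilent mouse arrays, with 45018 spots each. Per the file headers they were read with Agilent Feature Extraction 10.7.3.1 (10.5.1.1 per the submitters' processing notes), whose deposited processed intensities are background-subtracted and dye-normalized. The log10 ratios deposited in the series matrix equal its log ratios, rounded. Mean spot intensities were corrected here with normexp (offset 50; local background over 3 times the array median and marked as outlying was set to the median and the spot left out) and loess within arrays. Between 0.473% and 0.89% of spots were left out. A probe was kept where either channel exceeded background (as the scanner software flags it) on 2 or more arrays, which left 21691 probes, and the brightest probe stood for its gene. The log2 ratios of the 15014 genes, computed from the deposited intensities, were fitted with limma 3.58.1 (R 4.3.3; bacterium and time, 3 residual degrees of freedom, prior 5.69; for the change over time by bacterium, 4 cell means), with Benjamini-Hochberg adjustment. The code was tested on simulated data.

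The genes and lists were chosen with earlier results of these data known. Within each comparison the called genes named were drawn from up to 8 each way with the largest changes of 1 sign on every array. Not all of these are given with values. The core subunits and the isoform pairs were named as well. Where none was called, names were drawn from the 3 with the smallest p each way. Others were named after their values were seen. The values of 1 gene are not reported here, though it is counted. Gene names are those of the array files; RefSeq supplied promoter windows only. Where nothing in the labels says that cultures were separate experiments, p-values measure the spread between these arrays. The number of arrays limits the precision.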

Additional observations from a re-analysis of the deposited data

How the results depend on the processing

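No paired analysis was possible because every group holds 1 array. Of the 24 higher and 22 lower calls with L. acidophilus, 2 and 5 were kept in all 25 alternatives run for that value (Atp5g3 and Ndufc2; Cox7a2l, Ndufb5, Ndufv1, Sdhb and Sdhc). With B. clausii 1 and 13 of 51 were kept, Cox6a1 being the higher one and Cox7a2l, Sdhb, Sdhc and Ndufaf4 among the lower, and of the 27 changes over time 0. The processed signals and the series matrix each gave 27 calls with L. acidophilus and 1 over time. Of all genes the series matrix called 17.5% higher and 14.1% lower with L. acidophilus, and over time 4.42% and 4.14%. A fit without time gave 21 calls with L. acidophilus (12.1% higher and 8.37% lower of all genes). It gave 30 with B. clausii (12.1% and 11%) and 6 over time (4.18% and 4.67%). Median centring gave 78 calls with B. clausii (of all genes 5.84% were higher and 58.2% lower) and 73 between the bacteria (32.1% and 0.579%), and 29 values past 2-fold; it turned Ndufc2 (-0.10), Uqcrc1 (-0.089), Atp5a1 (-0.12), Uqcrq (-0.15) and Cox7b (-0.22) with B. clausii, Atp5d (0.10), Cyc1 (0.20) and Atp5k (0.21) between the bacteria, and Atp5c1-ps (-0.0054) and Ndufv2 (-0.053) in the change over time between bacteria. Cox5a with L. acidophilus turned to -0.023 with the processed signals and the series matrix alike. An offset of 0 gave 13 calls over time (7.49% and 7.51% of all genes up and down). So did the local background as deposited (4.42% and 4.02%), which gave 2 values past 2-fold. Scaling between arrays gave 0 of these, and a limit of 1.5-fold gave 20 values. At an adjusted p under 0.1 there was 1 call between the bacteria.

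Leaving out arrays gave 27 to 52 calls with L. acidophilus (27 without its 2 h and without its 4 h array), 27 to 56 with B. clausii (29 and 27 without its 2 h and 4 h arrays), 2 to 38 over time, 0 to 0 between the bacteria and 0 to 1 in the change over time between bacteria, the 1 without both 4 h arrays. The share of all genes called moved too. With L. acidophilus 13.5% were higher and 10.1% lower without its 2 h array. Without the B. clausii 6 h array these were 26% and 20.6%. With B. clausii the shares were 13.3% and 13.1% without its 4 h array. Without the L. acidophilus 6 h array they were 25.1% and 23%. Over time 4.14% rose and 3.52% fell without both 1 h arrays, and 13% and 14.3% without the L. acidophilus 6 h array. The cause was not tested for any of these counts. Each probe was also fitted on its own, an alternative chosen after the data were seen. This called 29 of 125 probes higher and 33 lower with L. acidophilus, 21 and 45 with B. clausii, and 18 and 19 over time. Of all 21691 kept probes, 8858 were called in either direction with L. acidophilus, 9560 with B. clausii and 4968 over time. Signals near background limit only Cox4i2.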

Other observations

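The difference between the bacteria followed the base composition of the probes. Across the 91 genes it correlated with the probe's GC content at r = -0.47, and at r = -0.21 across all genes tested; the points share their arrays, and each bacterium has its own slide. The 27 genes with a probe of at most 40% GC had a median difference of 0.08 (L. acidophilus less B. clausii), and the 28 with at least 50% had -0.00; over all genes these medians were 0.05 and -0.03. The part of base composition in the differences between the bacteria was not tested.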
